A study of Mus musculus with 11 samples.

Results

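The RNA pulled down on tagged ribosomes after cocaine self-administration was compared with the RNA that the same kind of pull-down left behind. Each of the 3 immunopurified (IP) libraries of the cocaine group was divided by the 1 unbound library of that group, so that 4 of the 11 libraries of the series enter the comparison. The mice behind all 4 were adults that gave themselves cocaine intravenously under short access, and they belong to the transgenic line Glt25d2-EGFP/Rpl10a DU9. The line carries an EGFP-tagged ribosomal protein L10a under the regulatory DNA of Glt25d2, the older name of Colgalt2, and the line and its tag are shared by all 11 libraries. A second, separate comparison is used beside it: the 3 IP libraries of mice that self-administered saline over the 1 saline input, which is total RNA from before the pull-down. It has no library in common with the first. The remaining 3 libraries are IP libraries of yoked controls and serve only to estimate spread. Cerebral cortex is the labelled tissue, whereas the extraction text speaks of dissected whole striatum. Whether a replicate is an animal or a pool, and which animals the unbound RNA came from, is not given in the sources used here.

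In translating ribosome affinity purification (TRAP), beads coated with antibodies against EGFP capture polysomes of the cells that make the tagged protein. RNA in the bound fraction is therefore mostly messenger RNA in the act of translation, from cells that express the transgene and, to a variable degree, from other cells that stick to the beads. The unbound fraction keeps RNA of all other cells, RNA that sits on untagged ribosomes and RNA that is not on ribosomes at all, such as long noncoding RNA held in the nucleus. Colgalt2 marks layer 5 pyramidal neurons of the cortex that project to the brainstem and spinal cord.

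The cocaine IP libraries held 42613969, 33633470 and 36582541 gene counts in replicates 1, 2 and 3, and the unbound library 20926712. The unbound library was sequenced on lane 1 and carries library number 912, while the cocaine IP libraries ran on lane 2 under numbers 442 to 444, so that the lane and the fraction cannot be told apart. Reads that overlapped several genes made up 7.34% of its entries against 1.56% to 1.91% in the other 10 libraries, and the part of this in the results was not tested. Replicate 1 stood apart among the IP libraries. The SD of its log2 ratios across genes was 1.12, against 0.59 in replicate 2 and 0.64 in replicate 3.

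Of 13527 genes averaging 1 CPM or more (counts relative to library size, scaled by TMM over the 4 libraries), 54 (0.399%) exceeded the unbound library 2-fold or more in each of the 3 IP libraries. The reverse, 2-fold or more below it in each, held for 299 genes (2.21%). Among called genes with an established name that reach 10 CPM in either fraction, the highest were Kalrn, an activator of small GTPases in dendritic spines, and Atg7, an enzyme of autophagosome formation. The lower ones of this kind included Ttr, the thyroid hormone carrier of the choroid plexus, and noncoding RNAs such as Malat1, Snhg11, Firre and Meg3, below which lay transcripts known by record names, among them AK140265 (mean ratio -8.63). These calls are descriptions and carry no test, because a permutation of 3 libraries against 1 cannot go below p = 0.25 one-sided and because any error of the lone unbound library enters all 3 ratios alike. Without a size limit, 4300 genes (31.8%) lay above the unbound library in all 3 IP libraries, 3477 (25.7%) lay below it and 5750 differed in direction.

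The 299 lower genes held 13.7% of the scaled counts of the unbound library and 0.888%, 1.65% and 1.25% of those of IP replicates 1, 2 and 3. A single transcript model, AK140265, accounted for 8.07% of the unbound gene counts. The 54 higher genes held 0.136% of the unbound counts and 0.925%, 0.731% and 0.605% of the IP counts. By class, 43 of 352 long noncoding genes (12.2%) and 6 of 47 pseudogenes (12.8%) were called lower, against 151 of 12497 protein-coding genes (1.21%). A further 99 lower genes came from the 627 gene names (15.8%) that could not be matched to the annotation, most of which are sequence-record names.

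Kalrn stood at 5645.5 CPM in cocaine IP replicate 1, 5088 in replicate 2 and 3748 in replicate 3, against 457.3 CPM in the unbound library. All 3 IP libraries were thus several-fold above the unbound one, at log2 ratios of 3.63, 3.48 and 3.03 (mean 3.38 ± 0.31, SD, n = 3, a 10.4-fold difference). In the saline libraries, which had no part in that comparison, Kalrn was at 7064 CPM, 5225 CPM and 4282 CPM in IP and at 5004 CPM in the input. The saline ratios of 0.50, 0.06 and -0.22 straddled 0, so IP and total RNA did not separate there. Kalrn (chromosome 16, 33969073 to 34573532, minus strand, GRCm38) shares no exonic base with another annotated gene.

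Atg7, which activates the conjugation of LC3 to lipid, was at 302.6 CPM, 95.4 CPM and 83.3 CPM in cocaine IP replicates 1 to 3 and at 18.5 CPM in the unbound library. Replicate 1 was more than 3 times the other IP libraries, and the log2 ratios were 4.03, 2.36 and 2.17. Saline IP replicate 1 was high too, at 422.4 CPM, while saline IP replicates 2 and 3 (99.2 CPM and 91.3 CPM) lay close to the input at 95.6 CPM. Lrguk, a leucine-rich repeat protein with a guanylate kinase domain, was at 12.4 CPM, 9.73 CPM and 9.34 CPM in IP and at 1.78 CPM in the unbound library. Its 3 ratios, 2.75, 2.41 and 2.35, were close together.

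The next genes by mean ratio had varied roles. Sh2d3c, an adaptor protein, was at 73.6 CPM, 37.7 CPM and 43.7 CPM in IP against 11.7 CPM unbound. Aimp2, a scaffold of the multi-enzyme complex of aminoacyl-tRNA synthetases, was at 87.2 CPM, 51.7 CPM and 49.3 CPM against 16.7 CPM. Rrp12, a factor of ribosome assembly, was at 40.1 CPM, 28.6 CPM and 28.5 CPM against 9.76 CPM. For each of these 3 genes the lowest IP library was still about 3-fold above the unbound one, and replicate 1 was the highest. Ubb, a polyubiquitin gene, had ratios of 2.42, 1.21 and 1.57, and Mgst3, a microsomal glutathione transferase, of 2.31, 1.23 and 1.38. Chst8, a sulfotransferase, Haghl, Asb6, Bnip1, Psmd13, Psmd6 and Rtfdc1 completed the 15 highest of the genes that reach 10 CPM in either fraction, with mean ratios from 1.38 to 1.91.

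**Figure D1:**
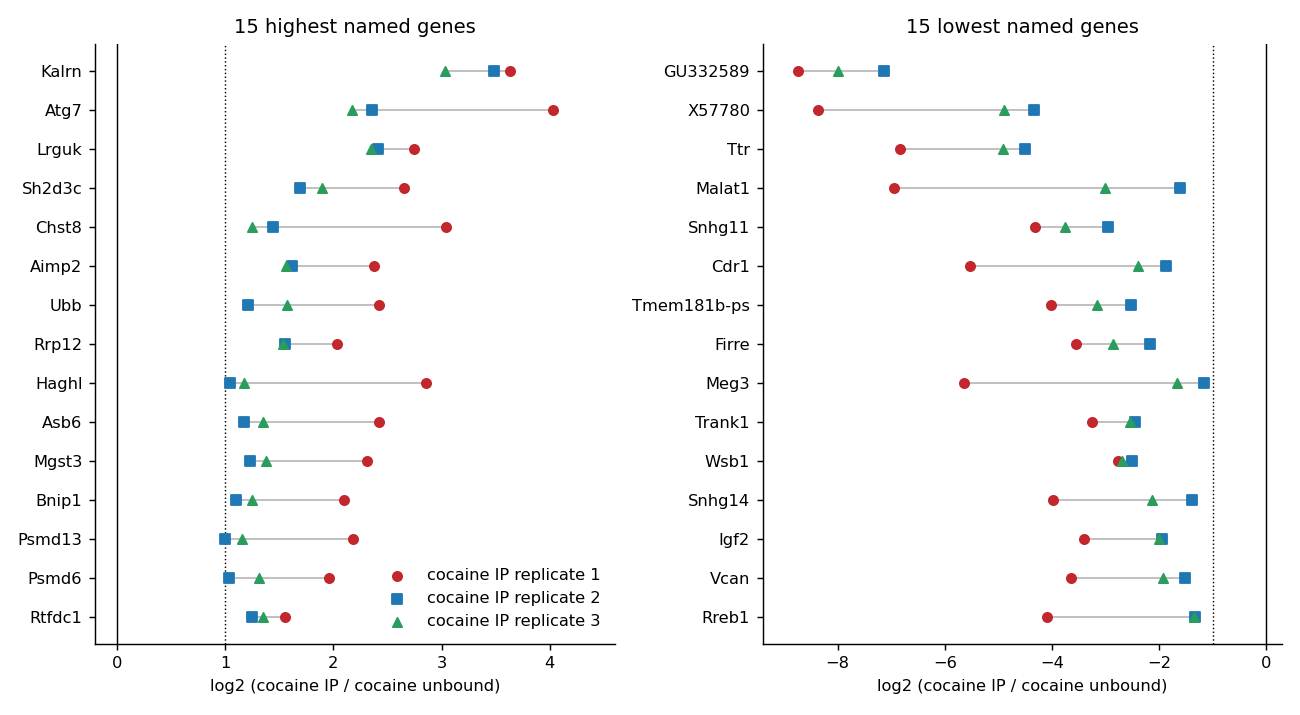
The log2 ratio of each cocaine IP library over the cocaine unbound library (x axis) is plotted for the 15 highest and the 15 lowest called genes with at least 10 CPM in either fraction, with 1 point for each IP replicate, a grey line over their range and a dotted line at 2-fold. Kalrn spans 3.03 to 3.63, whereas the points of Malat1 run from -6.95 to -1.62, and replicate 1 is the farthest from 0 for every gene in both panels.

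Replicate 1 was the most extreme of the 3 in 43 of the 54 higher and 207 of the 299 lower genes. A smaller group had 3 nearly equal ratios: 13 higher and 68 lower genes had an SD under 0.2 over the 3 ratios. Syt2, a calcium sensor of fast transmitter release, was among these higher genes, at 34.0 CPM, 33.4 CPM and 30.9 CPM in IP and 14.4 CPM unbound, as was Oat, ornithine aminotransferase, with ratios of 1.45, 1.20 and 1.24. Both were chosen for their evenness after their values were seen.

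Genes with few counts also appeared among the 54, some with larger ratios than Kalrn. Gykl1, an intronless gene related to glycerol kinase, had 445, 162 and 192 counts in the IP libraries and 0 in the unbound library. With 3 counts in the unbound library (0.149 CPM) assumed as an upper limit for a count of 0, it was at least 31.5-fold higher in IP. That limit was set and not measured, so the fold is not a strict minimum. Tekt2, a tektin of cilia and flagella, had 129, 84 and 78 counts in IP and 2 in the unbound library. In the saline libraries Gykl1 was at 5.40 CPM, 3.17 CPM and 3.51 CPM in IP and at 5.96 CPM in the input, so the input lay above all 3 saline IP libraries.

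Malat1, an abundant long noncoding RNA of nuclear speckles, stood at 100.4 CPM, 4038 CPM and 1547 CPM in cocaine IP replicates 1, 2 and 3, and at 12448 CPM in the unbound library. All 3 IP libraries were lower, but by very different amounts, with log2 ratios of -6.95, -1.62 and -3.01 (-3.86 ± 2.76, SD, n = 3). Saline IP replicate 1, at 216.2 CPM, also lay far below the input (3939.7 CPM), while saline IP replicates 2 and 3 (3544 CPM and 4329 CPM) did not. Malat1 lacks a poly(A) tail: its 3′ end is known to fold into a triple helix in which a short A-rich stretch pairs with T-rich (in RNA, U-rich) stretches, and this end keeps the RNA stable in the nucleus. The stretch is shown because Malat1 was the most unevenly depleted of the named noncoding RNAs (SD 2.76). It is read from the longest annotated transcript (GENCODE M21, chromosome 19, 5795982 to 5796077, minus strand, GRCm38), where it covers bases 6596 to 6691 of 6983. Capitals mark both T-rich stretches and the A-rich stretch.
Malat1 3′ element: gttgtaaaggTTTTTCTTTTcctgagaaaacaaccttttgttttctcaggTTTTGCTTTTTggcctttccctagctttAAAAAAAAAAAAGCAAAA
A search on the transcript strand for TTTTTCTTTT, then TTTTGCTTTTT within 60 bases and a run of at least 10 A within 40 more found this order in the transcripts of 1 of 55450 annotated genes, Malat1 itself. Taken singly, TTTTTCTTTT occurred in transcripts of 15.8% and TTTTGCTTTTT in those of 2.16% of the 12900 tested genes with an annotated transcript.

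Other noncoding RNAs differed in how evenly they were low. Snhg11, a spliced neuronal transcript that hosts small nucleolar RNAs, was at 29.7 CPM, 75.7 CPM and 43.9 CPM in IP against 589.5 CPM unbound, with ratios of -4.31, -2.96 and -3.75. Firre, an X-linked RNA that organises nuclear domains, was at 0.961 CPM, 2.60 CPM and 1.59 CPM against 12 CPM. Both were low in every IP library. Meg3, a maternally expressed imprinted RNA, was by contrast at 40.7 CPM in replicate 1 but at 904.5 CPM and 639.4 CPM in replicates 2 and 3, against 2035 CPM unbound. Snhg14, the long host transcript that runs antisense to Ube3a, had ratios of -3.98, -1.39 and -2.14. Among 13 measured nuclear noncoding RNAs, 6 were called lower, none higher, and 9 lay below the unbound library in all 3 libraries. Their medians were -3.90, -0.64 and -0.76, against 0.03, 0.05 and 0.07 over all genes. Of all genes, 2.21% were called lower and 25.7% lay below in all 3 libraries. Neat1, the scaffold RNA of paraspeckles, went the opposite way in 2 libraries: it was at 0.36 CPM in replicate 1, 76.0 CPM in replicate 2, 46.2 CPM in replicate 3 and 6.19 CPM in the unbound library.

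**Figure D2:**
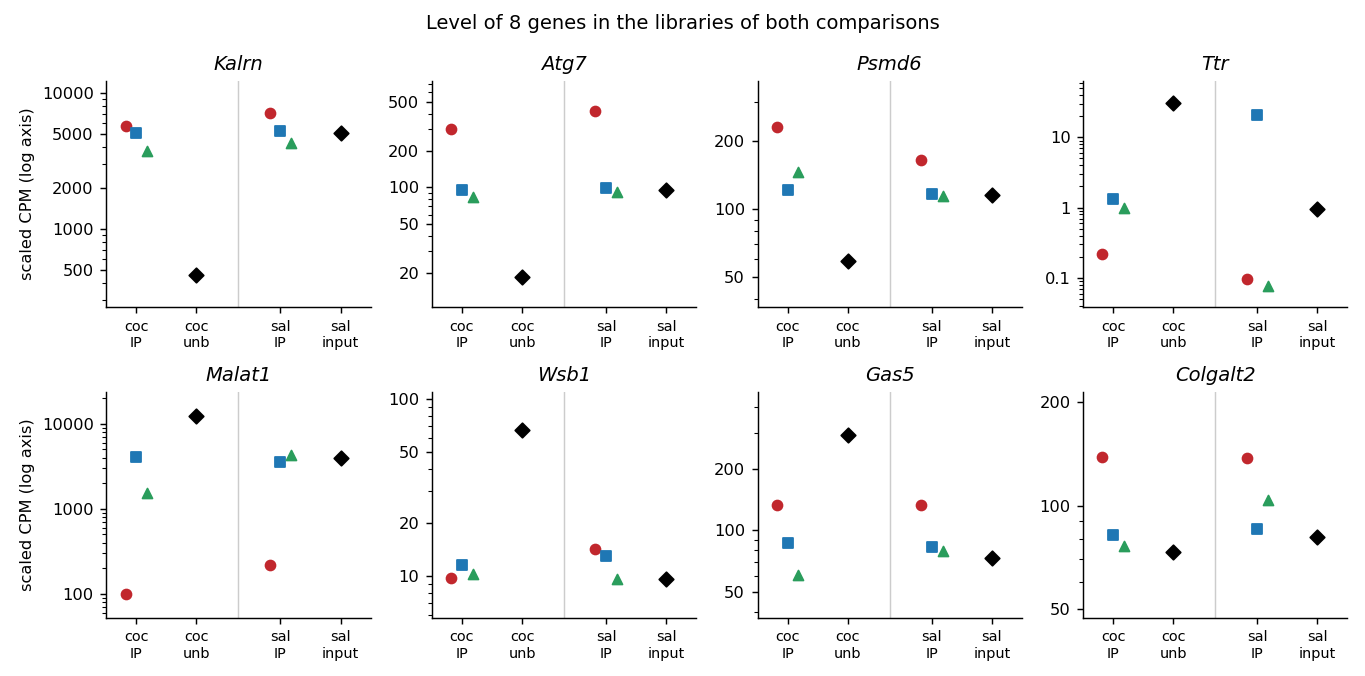
Scaled CPM (log axis, a separate range in each panel) of 8 genes is shown in the 3 cocaine IP libraries (coc IP) and the cocaine unbound library (coc unb) and, to the right of the grey line, in the 3 saline IP libraries (sal IP) and the saline input (sal input), with circles, squares and triangles for IP replicates 1, 2 and 3 and diamonds for the lone libraries. The unbound library lies apart from the IP libraries for Kalrn (457.3 CPM against at least 3748 CPM), while the saline input at 5004 CPM sits among the saline IP libraries, and Colgalt2 is near the unbound level in replicates 2 and 3 but at 138.4 CPM against 73.1 CPM in replicate 1.

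The host genes of small nucleolar RNAs had a median of mean ratios of -1.39, next to -1.35 for the nuclear noncoding RNAs. The order of these lists turned when replicate 2 was left out (-1.28 and -2.10), when replicate 3 was (-1.14 and -1.55) and with the GC trend removed (-1.16 and -1.67), where no host gene was called. Their spliced transcripts are exported, are mostly poorly translated and are broken down in the cytoplasm by nonsense-mediated decay, while the small RNAs are cut from the introns. Of 7 measured, 3 were called lower, none higher, and 5 lay below the unbound library in all 3 libraries, with medians of -0.89, -1.44 and -1.98. The shares over all genes were 2.21% called lower and 25.7% below in all 3. Gas5 was at 133.0 CPM, 86.5 CPM and 60.8 CPM in IP and at 293.0 CPM unbound. Snhg3 was at 11.7 CPM, 7.47 CPM and 6.24 CPM against 26.8 CPM, and Snhg7 at 2.59 CPM, 2.37 CPM and 1.41 CPM against 6.54 CPM. For these 3 genes replicate 1 was the nearest to the unbound library, in contrast to most lower genes. Snhg11 (-4.31, -2.96 and -3.75) and Snhg14 (-3.98, -1.39 and -2.14), host transcripts counted in other lists, had replicate 1 farthest from the unbound library. Snhg6 (-0.59, -1.61 and -1.98) and Snhg5 (-0.89, -1.39 and -1.10) were below it without reaching 2-fold in all 3, and Snhg12 (0.02, -1.12 and -1.28) and Snhg1 (0.34, -0.83 and -0.87) were below it in replicates 2 and 3. In saline IP over input, 7 such genes had medians of 0.59, 0.11 and 0.09. Exons of Snhg3 overlap another annotated gene over 86.3% of their length, and those of Gas5 over 17.8%.

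Many of these genes start transcription at a C followed by a run of pyrimidines, the kind of start that ribosomal protein genes have. The first transcribed bases of the 6 host genes with a start sequence are shown because 5 of the 7 measured lay below the unbound library in all 3 libraries. Each line gives 10 bases before an annotated start and 20 from it (RefSeq, GRCm38.p6). Capitals mark a C followed by at least 4 pyrimidines with the C within 3 bases of the start. Gas5 has 2 annotated starts, and for such genes a start that holds the tract was shown where there was any. The other host genes shown have 1 start each. The windows lie on chromosome 1 from 161035156 to 161035185, plus strand (Gas5), on chromosome 4 from 132353667 to 132353696, minus strand (Snhg3), on chromosome 2 from 26640225 to 26640254, minus strand (Snhg7), on chromosome 4 from 132308668 to 132308697, plus strand (Snhg12), on chromosome 9 from 88522878 to 88522907, minus strand (Snhg5), and on chromosome 19 from 8723477 to 8723506, plus strand (Snhg1).
Gas5: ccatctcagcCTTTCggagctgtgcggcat
Snhg3: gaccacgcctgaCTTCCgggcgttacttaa
Snhg7: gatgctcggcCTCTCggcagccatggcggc
Snhg12: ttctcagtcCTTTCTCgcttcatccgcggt
Snhg5: gcggtgaaccgggctcgttcttttacgacg
Snhg1: tcttgtcggcctcatttttccttgttcggg
On the transcribed strand, 4 of the 6 host genes with a start sequence held such a tract, as did 23 of 53 ribosomal protein genes and 1479 of 9889 tested genes (15%). A gene was counted if any of its annotated starts held the tract. Over those 9889 genes the median of the mean ratio was 0.07 with the tract and 0.07 without it.

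Cytosolic ribosomal protein genes, which share this kind of start, had a median above the unbound library in replicate 1 and below it in replicates 2 and 3. Of 71 measured, 11 lay above the unbound library in all 3 IP libraries and 3 below, against 31.8% and 25.7% of all genes. None was called, and the medians were 0.81, -0.35 and -0.29. The sign of the median of their mean ratios (0.05) depended on the scaling, being negative with upper-quartile factors and with the GC trend removed. Without replicate 1 this median was -0.32 and 3 of the 71 were called lower, against 415 of all 13527 genes. Reads of many of these genes also match processed pseudogenes, which counting may drop.

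Transcripts known for introns that stay in the nuclear RNA, among them splicing regulators and Clk kinases, were low as well. Of 20 measured, 11 were below the unbound library in all 3 libraries, none above, and 2 were called lower. Over all genes, 25.7% were below in all 3 and 2.21% were called lower. The median of mean ratios of the 20 was -0.37, and with the GC trend removed 1 of them was called lower. Wsb1, a substrate receptor of a ubiquitin ligase, was at 9.73 CPM, 11.5 CPM and 10.2 CPM in IP against 66.2 CPM unbound, with ratios of -2.76, -2.51 and -2.69. Luc7l2, a splicing factor, was at 107.3 CPM, 162.3 CPM and 154.7 CPM against 344.5 CPM. The kinases Clk1 (-1.13, -1.0 and -0.96) and Clk4 (-0.88, -0.98 and -0.98) lay close to 2-fold lower in all 3 libraries. The saline input held Wsb1 at 9.61 CPM, on a scale set separately for the saline libraries, next to 14.2 CPM, 12.9 CPM and 9.64 CPM in saline IP.

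Several protein-coding genes of neurons were lower by similar amounts in the 3 IP libraries. Map2, the microtubule protein of dendrites, was at 466.2 CPM, 663.1 CPM and 544.0 CPM against 1443 CPM unbound, and Dlgap1, a postsynaptic scaffold, at 609.5 CPM, 658.9 CPM and 696.0 CPM against 1420 CPM. All IP libraries lay under the unbound level for both. In saline IP over input both genes were above the input in all 3 libraries, by 0.14 to 0.32 for Map2 and 0.24 to 0.60 for Dlgap1. Map2 was the only called gene of 12 measured dendritic messenger RNAs (median of mean ratios -0.02). Dlgap1 was 1 of 2 called of 19 postsynaptic scaffold and adhesion genes (median -0.09), so neither list was low as a whole. Over all genes, 2.21% were called lower. The Dlgap1 call was lost with library totals and with TMM over all 11 libraries. Eif2s3x, a subunit of the factor that brings initiator tRNA to the ribosome, had ratios of -1.49, -1.51 and -1.48, and Bend6, a repressor of Notch targets, of -1.39, -1.35 and -1.46. The potassium channel subunits Kcnj3 (-1.46, -1.29 and -1.21) and Kcnt2 (-1.21, -1.26 and -1.30) were called lower too, the only called genes of 68 measured potassium channel genes, a share near the 2.21% of all genes.

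Markers of layer 5 pyramidal tract neurons, the cells that Colgalt2 marks, were mostly above the unbound library. Of 11 measured, 8 were above it in all 3 libraries, 1 below, and Chst8 was called higher, with medians of 1.53, 0.58 and 0.56. Over all genes, 31.8% were above it in all 3, 25.7% below, and 0.399% were called higher. Fezf2, the transcription factor that specifies these neurons, was at 155.4 CPM, 56.6 CPM and 54.6 CPM in IP and at 28.4 CPM unbound, and Crym, a thyroid hormone binding protein, at 222.0 CPM, 72.5 CPM and 67.3 CPM against 43.5 CPM. Colgalt2 itself was at 138.4 CPM, 82.1 CPM and 76.4 CPM against 73.1 CPM, so that replicates 2 and 3 hardly differed from the unbound library (0.17 and 0.06). Bcl11b, another factor of these neurons, was at 140.2 CPM, 157.8 CPM and 148.7 CPM against 259.7 CPM. It was the 1 member below the unbound library in all 3. In a bulk fraction, more RNA from a cell type and more RNA of a gene per cell cannot be told apart. Markers of hippocampal neurons, which the labels do not name as carrying the tag, were also mostly above it: 5 of 6 measured were above the unbound library in all 3 libraries, none was below, and the medians were 1.53, 0.62 and 0.42. Among them C1ql2, a secreted synaptic protein, was called higher at 5.33 CPM, 1.27 CPM and 1.19 CPM against 0.446 CPM (9 counts). With a mean of 10 CPM or more only 2 hippocampal members were left, with a median of mean ratios of -0.20. The 8 hippocampal markers summed to 134.4 CPM, 133.1 CPM and 149.8 CPM in IP and 127.8 CPM unbound. The summed level of the 12 layer 5 markers was 1139.3 CPM, 681.0 CPM and 624.9 CPM in IP and 645.8 CPM unbound.

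Interneuron, striatal and oligodendrocyte markers lay mostly below the unbound library, where 25.7% of all genes did so in all 3 libraries. Among 16 interneuron genes, 12 were below the unbound library in all 3 libraries and 1 above, with medians of -1.0, -0.58 and -0.23, and the glutamate decarboxylase gene Gad2 was at 249.8 CPM, 465.1 CPM and 577.1 CPM against 696.3 CPM. Among 14 striatal projection neuron genes, 10 were below in all 3 and none above, with Six3 called lower, a call that was lost with library totals. Among 14 oligodendrocyte genes the figures were also 10 and none, with Cldn11, the tight-junction protein of myelin, called lower at 31.4 CPM, 49.5 CPM and 54.5 CPM against 139.4 CPM. Astrocyte genes, of which 4 of 12 were below in all 3 and 2 above, split by library, with medians of -1.33, 0.20 and 0.17, and Slc1a2, their main glutamate transporter, was at 396.6 CPM, 1887 CPM and 1579 CPM against 1660 CPM. Microglial genes (-0.38, 0.14 and 0.00) lay nearer to the unbound library, with 4 of 12 below in all 3 and 3 above, and layer 2 to 4 neuron genes had 3 of 10 below and 2 above.

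Ttr was by far the lowest gene with a common name, at 0.216 CPM, 1.33 CPM and 0.982 CPM in IP (9, 46 and 37 counts) and at 31.2 CPM (631 counts) unbound. Its saline levels spread as widely, at 0.0961 CPM, 21.1 CPM and 0.078 CPM in IP and 0.944 CPM in the input. Of the 12 choroid plexus genes 7 were measured, 1 was called and 4 were below the unbound library in all 3. Without Ttr the summed level of the list was 107.3 CPM, 99.2 CPM and 119.0 CPM in IP and 98.9 CPM unbound, most of it from Enpp2, which makes lysophosphatidic acid (100.1 CPM, 87.6 CPM and 104.6 CPM against 82.9 CPM). Without both, it was 7.11 CPM, 11.7 CPM and 14.5 CPM against 16 CPM, lower in each IP library. Of the defining genes, Folr1 had 0 counts in the unbound library, Aqp1 had 1 count, Slc4a5 3 and Otx2 6. Meningeal and fibroblast genes were lower in sum, at 19.1 CPM, 33.4 CPM and 30.6 CPM against 76.8 CPM, of which the growth factor gene Igf2 gave 46.5 CPM in the unbound library. Igf2 and the proteoglycan gene Ogn were called lower and 5 of 8 measured genes were below in all 3. Over all genes, 2.21% were called lower and 25.7% were below in all 3. Exons of Igf2 overlap other annotated genes over 64.5% of their length.

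Imprinted genes, expressed from 1 parental copy, were called lower in 8 of 32 measured and higher in none. Over all genes 2.21% were called lower, and over long noncoding genes 12.2%. Among the protein-coding members, 5 of 26 were called lower. In all 3 libraries 14 members lay below the unbound library and 5 above, against 25.7% and 31.8% of all genes. The median of their mean ratios was -0.26. The 8 called lower included Meg3, Mirg and Rtl1 from 1 cluster on chromosome 12, and Snhg14, Snrpn and Ube3a from 1 cluster on chromosome 7. Ube3a, a ubiquitin ligase, was at 60.2 CPM, 78.9 CPM and 71.3 CPM against 166.8 CPM, and Snrpn, which encodes a spliceosome protein, at 1.06 CPM, 0.866 CPM and 0.318 CPM against 2.67 CPM. Ndn, another imprinted gene of the chromosome 7 cluster, lay above the unbound library in all 3 (1.35, 0.44 and 0.51). Because Snhg14 runs antisense to Ube3a and the strand setting of the counting is not stated, reads of this pair cannot be separated.

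**Figure D3:**
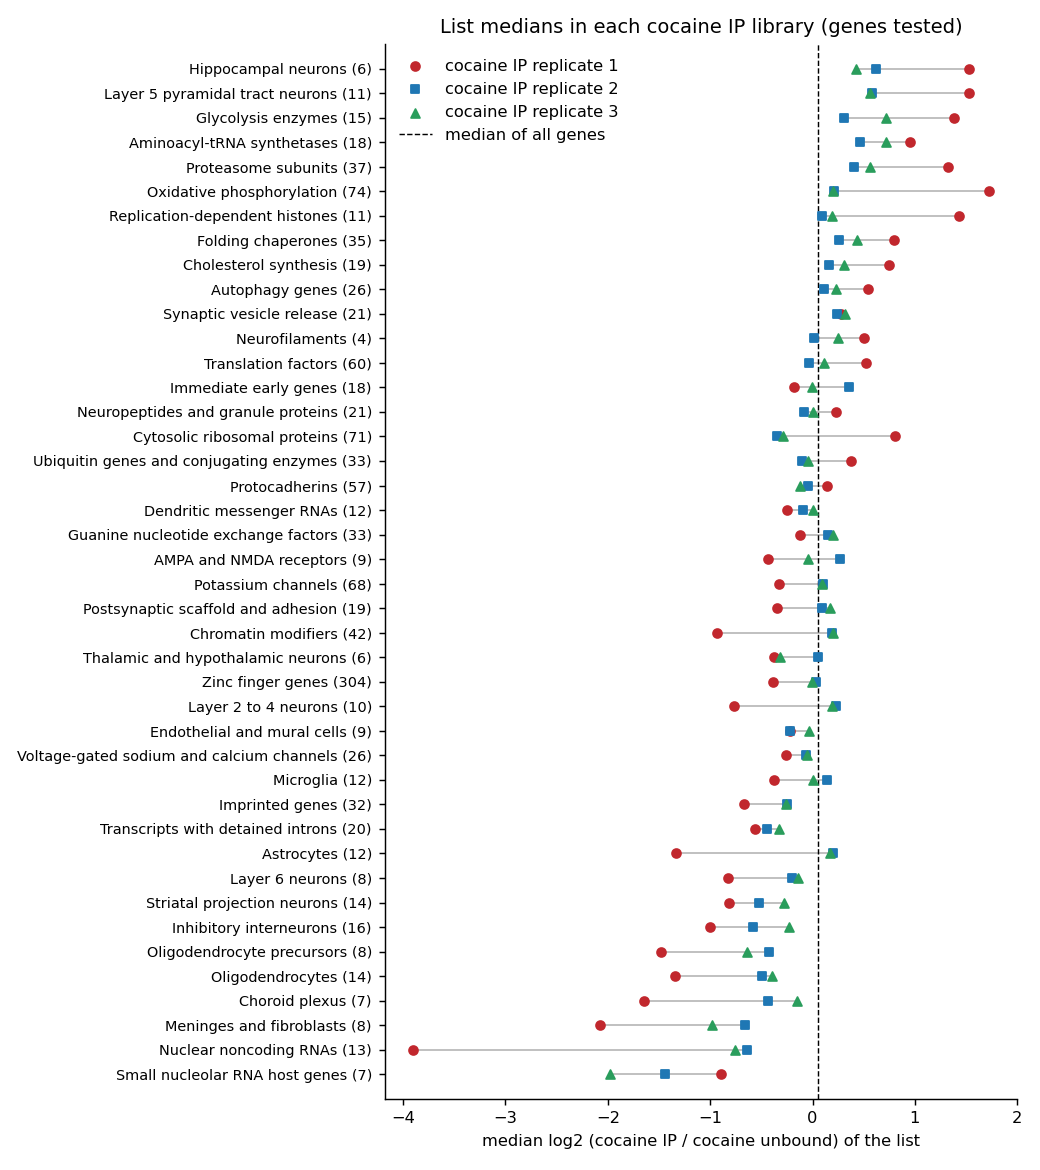
Each row is 1 of 42 gene lists with the number of genes measured, and the points give the median log2 ratio of its members in cocaine IP replicates 1, 2 and 3 over the unbound library, with a grey line over the range and a dashed line at the median of all genes (0.05). Layer 5 and glycolysis genes lie to the right in all 3 libraries, small nucleolar RNA host genes to the left, and nuclear noncoding RNAs reach -3.90 in replicate 1.

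Glycolysis enzymes, proteasome subunits, aminoacyl-tRNA synthetases and oxidative phosphorylation genes were mostly above the unbound library. Their medians were under 2-fold in replicates 2 and 3, while in replicate 1 only the synthetases (0.95) stayed under it. Of 15 measured glycolysis enzymes, 14 were above it in all 3 libraries and none below, with medians of 1.38, 0.31 and 0.72 and none called. Aldoa, an aldolase, was at 3102 CPM, 1212 CPM and 1457 CPM against 779.5 CPM, and Pgk1, phosphoglycerate kinase, at 100.4 CPM, 41.3 CPM and 48.5 CPM against 22.6 CPM. Of 37 proteasome subunits, 31 were above in all 3 and none below, and Psmd13 and Psmd6, subunits of the regulatory particle, were called higher. Over all genes, 0.399% were called higher. Both calls lay at the threshold in replicate 2 (ratios of 1.0 and 1.04) and were lost with upper-quartile factors. Psmd6 was at 231.0 CPM, 121.7 CPM and 146.6 CPM in IP and at 59.2 CPM unbound. Of 18 cytosolic aminoacyl-tRNA synthetases, 15 were above in all 3 and none below, Aars, which charges alanine, being at 184.3 CPM, 114.5 CPM and 159.5 CPM against 59.2 CPM. For 74 genes of oxidative phosphorylation, 50 were above in all 3 and 1 below, but their medians, 1.72, 0.21 and 0.20, came mainly from replicate 1. Ubiquitin genes and conjugating enzymes did not go with the proteasome, with 13 of 33 above in all 3 and 9 below. Over all genes, 31.8% were above in all 3. Without replicate 1 the median of mean ratios went from 0.88 to 0.49 for glycolysis enzymes and from 0.75 to 0.46 for proteasome subunits. It went from 0.80 to 0.58 for synthetases and from 0.71 to 0.20 for oxidative phosphorylation. In saline IP over input the medians were 0.66, -0.17 and -0.01 for glycolysis and 0.43, -0.11 and -0.08 for the proteasome. Those of synthetases were 0.43, -0.10 and -0.07, and of oxidative phosphorylation 0.73, -0.16 and 0.06.

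Synaptic and signalling lists stayed near the median of all genes. Of 21 genes of synaptic vesicle release, 11 were above the unbound library in all 3 and 3 below, with medians of 0.28, 0.24 and 0.32, and Snap25, a core fusion protein, was at 21849.8 CPM, 16427 CPM and 20287 CPM against 19323 CPM. Of 33 guanine nucleotide exchange factors, the family of Kalrn, 12 were above and 6 below in all 3, and Kalrn alone was called. The 26 autophagy genes had 15 above and 2 below, and Atg7 alone was called. Immediate early genes, which neurons switch on with activity, had 4 of 18 above and 5 below, with Egr1 and Egr3 at mean ratios of -0.48 ± 0.52 and -0.23 ± 0.31 (SD, n = 3).

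For 684 genes replicate 1 was at least 2-fold from the unbound library while replicates 2 and 3 both lay on the other side of it. Besides Neat1, they included Dnmt3a, a DNA methyltransferase, at 35.6 CPM, 285.4 CPM and 173.8 CPM against 83.7 CPM unbound. It was chosen after its values were seen. Chromatin modifiers as a list had medians of -0.93, 0.19 and 0.20. Only 5 of 42 were above and 7 below in all 3 libraries, against 31.8% and 25.7% of all genes. Taken alone, replicate 1 had 2200 genes (16.3%) above and 2257 (16.7%) below by 2-fold or more. Replicate 2 had 393 (2.91%) above and 543 (4.01%) below, and replicate 3 had 309 (2.28%) and 723 (5.34%).

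A test was run with edgeR's quasi-likelihood model over all 11 libraries in 5 groups, with Benjamini-Hochberg adjustment over 18070 genes, in which the lone unbound library is assumed to vary like the IP groups. At an adjusted p of 0.05 it called 2 genes higher in cocaine IP (0.0111%) and 8 lower (0.0443%), while 1870 genes had an unadjusted p under 0.05. Gykl1 and Tekt2 rose (adjusted p = 0.0400 for both). Wsb1 (log2 fold change -2.68, SE 0.24, adjusted p = 0.00813), Trank1 (-2.73, SE 0.28, adjusted p = 0.0163), Leng8 (-1.72, SE 0.21, adjusted p = 0.0400) and Bend6 (-1.42, SE 0.18, adjusted p = 0.0400) fell, as did 4 transcripts known by record names, among them AK140265 and GU332589 (adjusted p = 0.00813 for both). Kalrn missed the threshold (3.38, SE 0.46, adjusted p = 0.0503), and Malat1 did so by a wide margin (adjusted p = 0.626).

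Deviations of IP libraries with the same replicate number correlated across the 3 treatment groups, so the number was also fitted as a block. Input and unbound, which carry no number, were placed at its mean. Because replicate 1 stood apart, this correlation does not settle whether replicates 2 and 3 are paired by number. With this replicate block edgeR called 1329 genes higher (7.35%) and 1617 lower (8.95%). Of the 54 genes called higher by their ratios 46 passed in the same direction, and of the 299 lower ones 278 did. Both ways use the same IP and unbound libraries, so this overlap was largely fixed by the selection and is no separate support. Kalrn rose (3.36, SE 0.25, adjusted p = 2.81e-07), as did Atg7 (2.84, SE 0.23, adjusted p = 7.3e-07). Malat1 fell (-3.81, SE 0.31, adjusted p = 7.93e-07), whereas Ttr did not pass (-5.70, SE 1.53, adjusted p = 0.0626). The block takes up the difference between replicate numbers, and no term in it holds the error of the single unbound library.

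By list, the blocked edgeR fit called 27 of 39 proteasome genes, 12 of 18 aminoacyl-tRNA synthetases, 11 of 16 glycolysis enzymes and 31 of 79 oxidative phosphorylation genes higher. It called 2 of the last list lower and none of the other 3. Over all genes, this fit called 7.35% higher and 8.95% lower. Layer 5 markers had 7 of 12 higher and 1 lower. Of the host genes of small nucleolar RNAs 6 of 8 fell, of nuclear noncoding RNAs 9 of 14, of oligodendrocyte genes 8 of 14, of interneuron genes 7 of 16 and of the transcripts with retained introns 8 of 20, with none higher in these 5 lists. Without the block, 1 gene in all these lists passed, Wsb1. Leaving out the 3 IP libraries numbered 1 gave 1595 genes higher (8.98%) and 1433 lower (8.07%).

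Saline IP over saline input gave few genes at this threshold. Of 13478 genes, 10 (0.0742%) exceeded the input 2-fold or more in each saline IP library and 6 (0.0445%) lay as far below it. AK140265 was the only gene called in the same direction in both comparisons, at 154.4 CPM, 328.4 CPM and 364.7 CPM in saline IP and 1641 CPM in the input, against 110.7 CPM, 308.6 CPM and 278.1 CPM in cocaine IP and 83667 CPM unbound. All 54 genes higher over unbound were measured there, and 12 (22.2%) lay above the input in all 3 libraries and 13 (24.1%) below it. Of the 299 lower genes 241 were measured there, 71 (29.5%) above the input in all 3 and 25 (10.4%) below. Over all 13300 genes measured in both comparisons, 18.9% lay above the input in all 3 saline libraries and 17.6% below. The lower genes had medians of -0.19, 0.34 and 0.10 in the saline libraries, and the higher ones of 0.29, -0.09 and -0.07. Since 1 comparison uses unbound RNA of cocaine mice and the other input RNA of saline mice, fraction and treatment cannot be told apart between them.

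**Figure D4:**
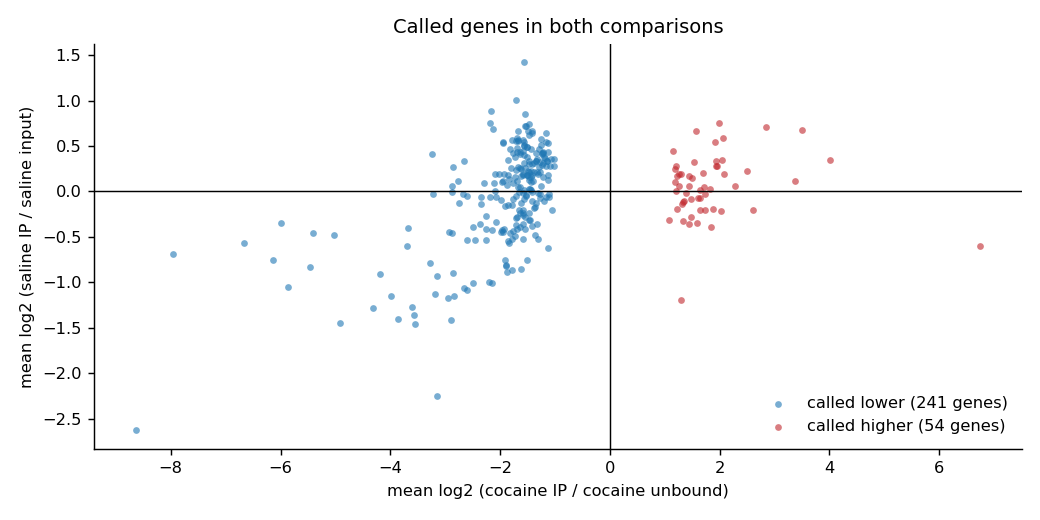
Each point is a gene called in cocaine IP over unbound and measured in the saline libraries, with its mean log2 ratio of cocaine IP over unbound on the x axis and of saline IP over input on the y axis. The 54 higher genes (red) and 241 lower genes (blue) both spread around 0 on the y axis, with medians of 0.06 and 0.03.

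The ratios also ran with the base composition of the transcript. In 5 equal groups of protein-coding genes by GC content of the longest transcript, from 31.0% to 43.8% in the lowest and from 55.4% to 71.3% in the highest, the median of the mean ratio was -0.26, -0.04, 0.12, 0.26 and 0.34. All 3 IP libraries ran the same way. Genes called lower numbered 71, 37, 21, 13 and 9 in these groups, and genes called higher 1, 8, 6, 20 and 16. In saline IP over input the order was the opposite and shallower, from 0.10 to -0.06. Transcript length was tied to replicate 1: from the shortest to the longest group its median went from 0.87 to -0.66, against 0.05 to 0.08 in replicate 2 and 0.11 to 0.03 in replicate 3. Over all called genes this check is void for the lower set, because only 66.9% of its genes matched an annotated transcript, against 96.3% of the higher set. Removing the GC trend from each library leaves out genes with no annotated transcript, so 52 of the higher and 200 of the lower genes could be tested, and 30 and 138 of these kept their call. Among the genes that lost it were Psmd6, Psmd13, Gas5, Snhg3, Luc7l2 and Kcnt2, while Kalrn, Atg7, Malat1, Wsb1 and Map2 kept theirs.

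**Figure D5:**
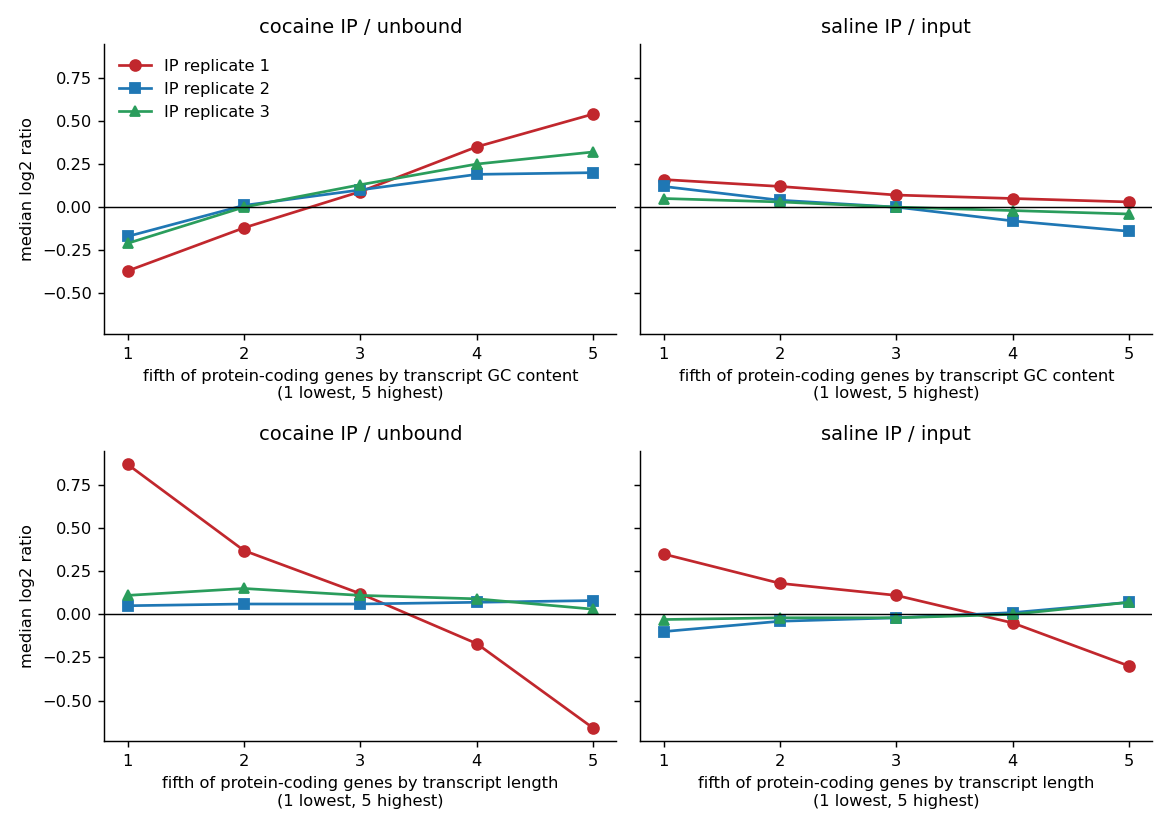
Median log2 ratios of protein-coding genes, in 5 equal groups by GC content (top) or length (bottom) of the longest transcript, are plotted for each IP replicate over the cocaine unbound library (left) and over the saline input (right). The GC lines climb in all 3 cocaine libraries, from -0.37 to 0.54 in replicate 1, and the length line is steep only in replicate 1.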

How the data were processed

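RNA from tagged ribosomes (9 libraries), from total RNA (1 library) and from an unbound fraction (1 library) was sequenced. The authors deposited raw counts per gene, and per the submitters' processing notes STAR 2.0.0e, mm10 and HTSeq were used. No version of HTSeq, annotation or strand setting is given in the sources used here. The 5 HTSeq summary entries and an entry named unknown were left out, which left 32531 genes of 32537 entries.

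Counts were scaled with TMM within the 4 libraries of each comparison, and log2 ratios were taken per library with a prior count of 2. Genes averaging 1 CPM or more were kept, and a call needs at least 2-fold in the same direction in all 3 libraries. CPM is not divided by length, so levels are compared between libraries and not between genes. Levels of the saline and cocaine comparisons were scaled separately. edgeR 4.0.16 (R 4.3.3) gave quasi-likelihood tests over 11 libraries with limma 3.58.1, and DESeq2 1.42.0 was an alternative. The SE of an edgeR fold change is the fold change divided by the square root of its F statistic. The scripts were tested on simulated data.

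The replicate numbers of the IP libraries come from the labels. Deviations from the group means of same-numbered libraries correlated at 0.57 to 0.90 in all 9 pairs, which was taken as pairing. Nothing says that replicates came from separate animals, so p-values measure only the spread between these libraries. Gene models were GENCODE M21 (GRCm38), which matched 23883 gene names, and start sequences were from RefSeq (GRCm38.p6).

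Named genes were Kalrn, Malat1, Ttr and Colgalt2, the 15 highest and 15 lowest called genes that have an established name and reach 10 CPM in either fraction, up to 4 called members of each list (otherwise its 2 most abundant), the 10 most abundant genes of the unbound library, and established names that pass edgeR. Other list members were named after their values were seen. The members and lists were chosen with earlier results of these data known. In the lists of synthetases and chaperones, genes taken in by name pattern alone (among them Coprs, Csprs, Fbrs, Ptprs, Hspg2, Hspbap1 and Hspb11) were removed after values were seen. Removing the GC trend and keeping protein-coding genes only were alternatives added after seeing the data. Values of some genes are not reported here.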

Additional observations from a re-analysis of the deposited data

Results flagged for a closer look

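Reads that fell on several genes, which no comparison uses, made up 7.34% of the entries of the unbound library and 1.56% to 1.91% of those of the other 10 libraries. It is 1 library, and the part of these reads in the ratios was not tested.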

How the results depend on the processing

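When any 1 IP library was left out, which can only add calls, the counts were 84 to 164 higher and 351 to 475 lower. Without a filter on low counts there were 157 higher and 1169 lower genes, with a mean of 10 CPM or more 20 and 106, at 1.5-fold 526 and 859, and at 4-fold 7 and 53. Removing the GC trend, which also leaves out 99 of the 299 lower genes because they have no annotated transcript, gave 36 higher and 189 lower, and protein-coding genes alone gave 151 lower. Scaling gave 36 to 78 higher and 246 to 389 lower genes: upper-quartile factors gave 36 and 389, library totals 78 and 246, with a median over all genes of -0.05 and 0.12 against 0.05. By edgeR, the replicate block gave 1329 higher and 1617 lower genes, and leaving out all IP libraries numbered 1 gave 1595 and 1433. The 4 libraries alone gave 0 and 0 (607 genes at an unadjusted p under 0.05), DESeq2's Wald test 129 and 271, and DESeq2 size factors 15 lower. Leaving out 1 cocaine IP replicate gave 0 to 1 higher and 0 to 4 lower genes: without replicate 3 none passed edgeR (lowest adjusted p = 0.113, 1584 genes at an unadjusted p under 0.05). For saline IP over input, leaving out 1 replicate gave 15 to 29 higher and 10 to 47 lower genes. The mean ratio of each named gene was compared with its main value in each setting. Of these pairs of gene and setting, 1329 stayed within 1 SD and 52 moved by more, none to the other sign with a call. Leaving out 1 replicate, or changing only which genes are kept, cannot move a mean ratio by 1 SD. Pairs of those settings therefore say nothing on stability. Removing the GC trend moved 25 and left 71 within 1 SD. Depth limits genes of few counts most: 31 higher and 151 lower genes were under 10 CPM in both fractions.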
